A study of Danio rerio with 9 samples.

Results

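The proteasome genes of zebrafish larvae were followed across 3 treatments on gene expression arrays. Members were chosen by name: every gene whose RefSeq symbol starts with psm, a letter from a to g and a digit. The RefSeq table of the GRCz12tu assembly holds 59 such symbols, of which 56 had at least 1 probe, against 12900 genes with a probe in all. Of these, 53 genes (107 of their 112 probes) were bright enough to be tested, against 11326 genes tested in all. Psmb11b, psme4a and psmg4 matched no probe, and psmb8a, psmb11a and psmb13a were not well above background on any array. Psmc3ip and psme3ip1 match only by spelling, since neither encodes a part of the proteasome, so the classes below hold the remaining 51 genes.

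RNA came from the whole body of larvae at 5 days post fertilization, with 3 samples per group, each on 1 single-colour array. Control larvae were kept in 1% DMSO for 1 h and then in vehicle for 1 h. The neomycin larvae had the same DMSO pretreatment and then 200 µM neomycin, an aminoglycoside antibiotic that kills lateral line hair cells in zebrafish, for 1 h. The third group was pretreated for 1 h with 50 µM tacrine, an inhibitor of acetylcholinesterase, and then given 200 µM neomycin for 1 h; its DMSO level is not given. The strain and the number of larvae per sample are not given either, and a group with tacrine alone was not analysed here. The submitters describe the samples of a group as independent experiments.

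The proteasome is the large protease that degrades proteins tagged with ubiquitin. Its core particle is a barrel of alpha rings, which gate the entrance, and beta rings, which hold the cutting sites. The regulatory particle caps the barrel: its ATPases unfold substrates and push them inward, and its non-ATPase subunits bind ubiquitin chains and remove them. Interferon-inducible beta subunits and the PA28 activator form a variant known for making peptides for antigen presentation, and dedicated chaperones assemble both particles.

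All levels are log2 signals relative to the 75th percentile of the same array, so a level of 0 equals that percentile, and levels of different probes cannot be set against each other. That percentile was a processed signal of 105 to 137 on the control arrays, 142 to 170 on the neomycin arrays and 152 to 226 on the arrays of both compounds. On each array 65.6% to 73.8% of probes were well above background, and no spot was saturated. Of the 53 tested genes, 52 were well above background on all 9 arrays; psmb9a was so on 7, and missed it on control arrays 1 and 2. The brightest tested probe stood for each gene. In whole larvae, fewer cells of a type and less RNA per cell cannot be told apart. Replicate numbers name slides: each slide carried 1 array of every group, and a group kept the same place on all 3 slides, so place and group cannot be told apart.

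Neomycin alone left the proteasome genes near their control levels. The 51 genes had a median log2 difference of 0.01, against -0.01 over all genes tested, and single genes ranged from -0.24 to 0.32. In limma's test, adjusted over all 31671 probes, 0 of the 53 genes passed an adjusted p of 0.05 (0.159% of all genes did), and 0 of their 107 probes (0.117% of all probes). At an unadjusted p under 0.05 the count was also 0 (8.18% of all genes). The control and neomycin arrays did not overlap for 2 of the 51 genes (13.5% of all genes), psmd11a and the assembly chaperone gene psmg1.

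The intervals give the precision of these differences under this normalization, not their range over other ones: with normexp background correction scaled to the 75th percentile, the core median became 0.87 and the regulatory median 0.92, and bright genes in general shifted up. For all 51 genes the 95% confidence interval of the difference lay within 2-fold in either direction, as it did for 86.5% of all genes. It lay within 1.5-fold for 44 of the 51 (86.3%), against 50.5% of all genes. The proteasome genes also varied less among replicates, with a median within-group SD of 0.18 on the log2 scale, against 0.22 over all genes. Of the 53 members, 36 were in the brightest of 4 equal groups of genes. These shares and SDs were not compared with equally bright genes, so they cannot be called particular to the proteasome.

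**Figure D1:**
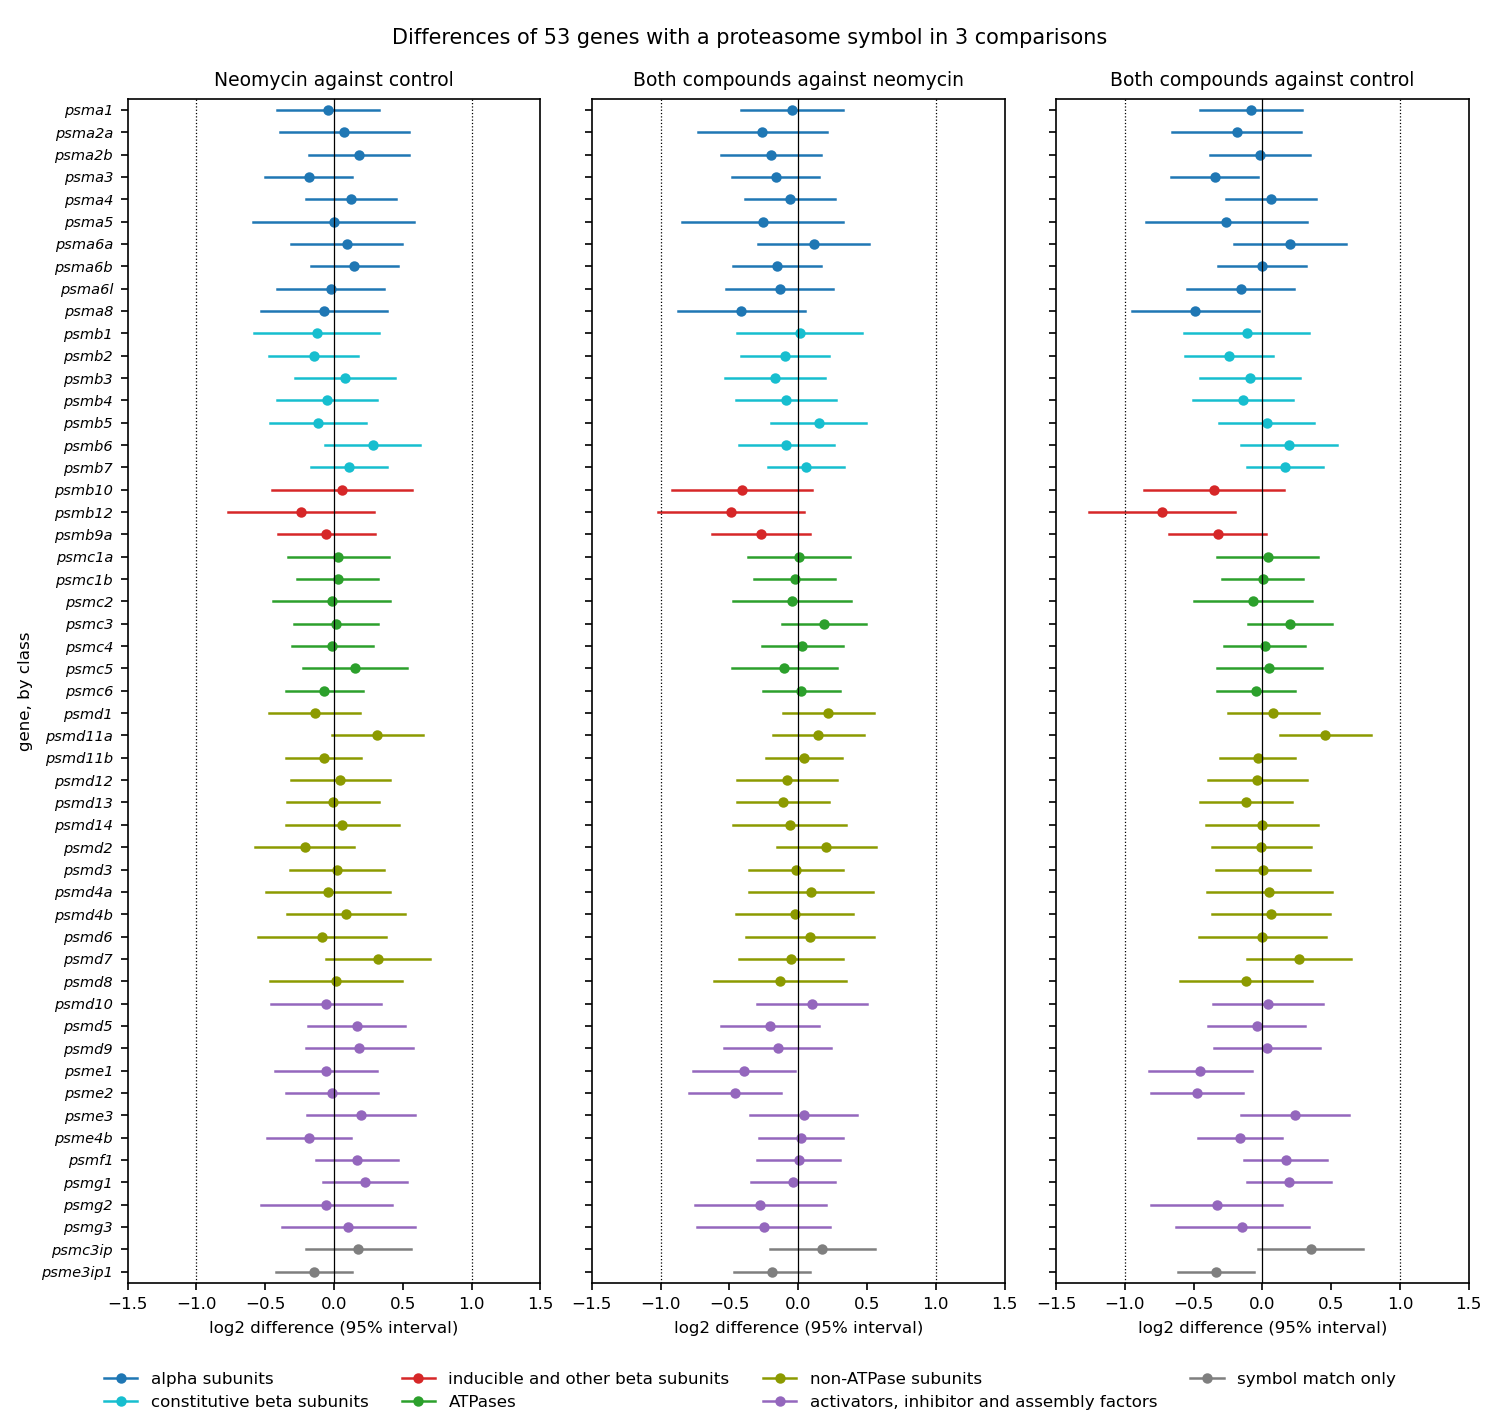
Log2 difference of each of the 53 tested genes (rows, coloured by class) in the 3 comparisons (panels), with its 95% confidence interval as a horizontal line. Dotted lines mark 2-fold in either direction. In the neomycin panel every interval lies inside them, and in the other panels 50 of the 51 proteasome genes stay inside, psmb12 being the exception.

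The same held for the core and the regulatory particle. The 20 tested core genes had a median difference of -0.01, and 9 of them were positive. The 20 regulatory genes had a median of 0.01, and 11 were positive. Among the beta subunits with cutting sites, psmb5 (chymotrypsin-like activity), psmb6 (caspase-like) and psmb7 (trypsin-like) differed by -0.12, 0.28 and 0.11 on the log2 scale, each with an SE between 0.12 and 0.15. Without control replicate 3 the psmb6 value was 0.17. Psmd7, a lid subunit that pairs with the deubiquitinase encoded by psmd14, had the highest value, 0.32 ± 0.17 (SE, n = 3 arrays per group, limma's adjusted p = 0.652). The other psmd7 probe gave 0.08, so that value rests on 1 of its 2 probes, and it was 0.20 without neomycin replicate 1. Psmd14 itself differed by 0.06 ± 0.18 (SE).

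When larvae had received tacrine before neomycin, again no proteasome gene passed, and only a small share of all genes did. A count of 0 among 53 genes lies near the shares given here, so it cannot be called particular to the proteasome. Against neomycin alone, 0 of the 53 genes were called (2.76% of all genes) and 0 of the 107 probes (2.67% of all probes). Unadjusted p values were under 0.05 for 2 of the 51 genes, psme1 and psme2 (17.4% of all genes). The groups did not overlap for 5 of the 51 (26.8% of all genes). Against the control, 0 genes were called (5.66% of all genes) and 0 probes (5.92% of all probes), with 6 of the 51 genes at an unadjusted p under 0.05 (22.0% of all genes). There the groups did not overlap for 14 of the 51 genes (29.9% of all genes), a share close to the background. With the slide as a block in the fit, 0 of the 53 genes passed in each of the 3 comparisons.

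The differences stayed small on the fold scale here too. The 51 genes had a median of -0.06 against neomycin and -0.02 against the control, beside -0.03 and -0.05 over all genes. Their intervals lay within 2-fold for 50 genes in each of these comparisons (98.0%), against 81.2% and 79.1% of all genes, again not matched for brightness. Both comparisons share their treated arrays, and each shares its reference arrays with another comparison, so the values are given side by side and not as independent results.

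The core and the regulatory particle were then set side by side in larvae given both compounds. The core genes had a median of -0.14 against neomycin and -0.13 against the control, and 4 and 5 of the 20 were positive. The regulatory genes had medians of -0.00 and 0.00, with 10 and 11 of 20 positive. Over all genes tested, 46.3% and 44.4% were positive. These medians describe the lists and carry no test. Single arrays decided much of the core values: the median against neomycin was -0.039 without neomycin replicate 1, and that against the control was -0.025 without control replicate 1 and -0.071 without replicate 3 of both compounds. The core median minus the regulatory median was -0.13 against the control, and -0.081 without control replicate 1. Against the control the core median turned positive (0.84) and the regulatory median went from near 0 to 0.97 under normexp background correction scaled to the 75th percentile, where bright genes in general shifted up; psma3, psma8 and psmb2, negative below, turned positive there too.

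The medians of both particles were uneven between slides, while the gap between them against neomycin had the core lower on each slide. The core median against neomycin was -0.32 on slide 1, -0.02 on slide 2 and -0.09 on slide 3, and the regulatory median was -0.08, 0.11 and 0.08. With each gene centred on its mean over the 9 arrays, the core median minus the regulatory median was 0.057, 0.012 and 0.008 on the control arrays and 0.039, 0.073 and 0.041 on the neomycin arrays. On the arrays of both compounds it was -0.155, -0.019 and -0.115, below 0 on all 3 and above 0 on the other 6. That separation was lost without the 3 inducible and related beta subunits. The gap was then 0.079, -0.023 and -0.039 on the control arrays and 0.026, 0.062 and 0.058 on the neomycin arrays. It was -0.125, 0.013 and -0.122 on those of both compounds. The core medians were then -0.09 in both comparisons, nearer to the regulatory ones.

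**Figure D2:**
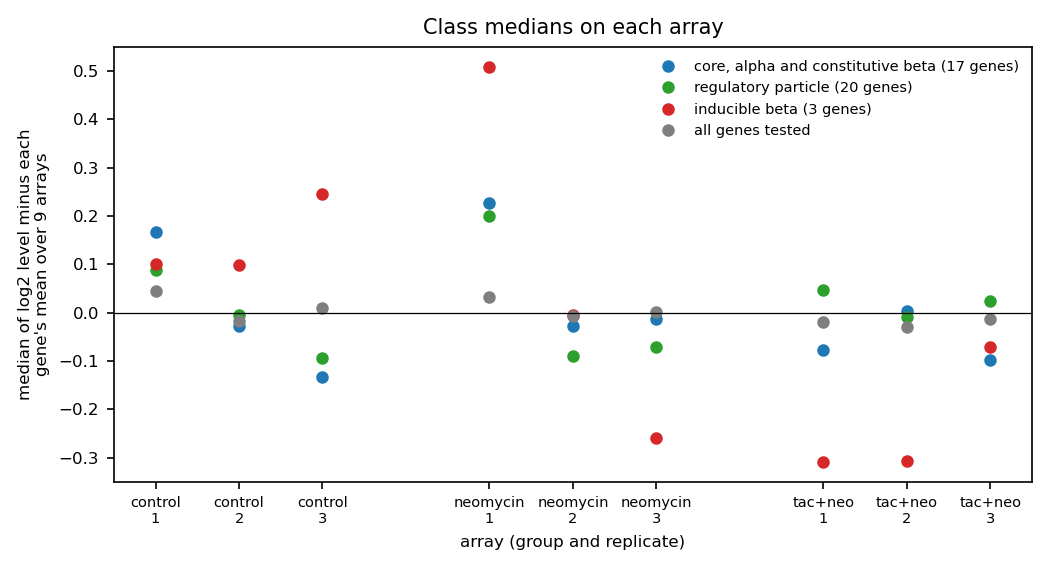
Median, on each of the 9 arrays, of the log2 level after subtracting each gene's own mean over the arrays. The classes are the alpha and constitutive beta subunits, the regulatory particle, the inducible and related beta subunits ("inducible beta") and all genes tested. The medians of the first 2 classes lie close to each other on most arrays. The 3 inducible and related genes spread the most, from high on neomycin array 1 to low on arrays 1 and 2 of both compounds ("tac+neo").

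Of the alpha subunits, 1 of 10 was positive against neomycin and 2 of 10 against the control, with medians of -0.16 and -0.12. The lowest was psma8. Its levels were 5.45, 5.24 and 4.98 in controls, 5.52, 4.91 and 5.02 after neomycin, and 4.50, 4.83 and 4.87 after both compounds. All 3 arrays of both compounds lay below all 6 others, but only narrowly except on slide 1. The difference from the control was -0.49 ± 0.20 (SE, limma's adjusted p = 0.199), made up of -0.94, -0.42 and -0.10 on slides 1, 2 and 3. Its other tested probes gave -0.11 and -0.16.

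Psma3, another alpha subunit, was tight in controls at 2.10, 2.09 and 2.10. It stood at 1.70, 1.93 and 2.12 after neomycin and at 1.71, 1.84 and 1.71 after both compounds. The last 3 values lay below every control, and the neomycin arrays spread across both groups. The difference of both compounds from the control was -0.35 ± 0.14 (SE, limma's adjusted p = 0.184). Psma6a had the highest value of its class against the control, 0.20 ± 0.18 (SE), which rested on replicate 2 of both compounds (0.0061 without it), and psma2b the highest after neomycin alone, 0.18 ± 0.16 (SE; 0.077 without control replicate 3).

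The 7 constitutive beta subunits had a median of -0.09 against neomycin and against the control. Psmb5 stood at 3.77, 4.15 and 3.71 in controls, 3.73, 3.78 and 3.77 after neomycin, and 4.02, 3.95 and 3.75 after both compounds. On this probe the groups overlapped, and the difference of both compounds from the control was 0.03 ± 0.15 (SE), with an interval from -0.32 to 0.38. The other 2 psmb5 probes gave 0.20 each against the control and 0.20 each against neomycin; on both of them the arrays of both compounds lay above the neomycin arrays, and on 1 above the controls as well, and neither passed. Psmb6 and psmb7 differed from the control by 0.19 and 0.16, the first by 0.084 without control replicate 3. On the brightest probes psmb2 had the lowest constitutive value against the control, -0.24 ± 0.14 (SE, limma's adjusted p = 0.355), and -0.16 without control replicate 2. Its other probe had the opposite sign there, 0.09. Against neomycin psmb3 was the lowest on the brightest probes, at -0.17.

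The inducible and related beta subunits had the lowest class medians, -0.41 against neomycin and -0.35 against the control. In the RefSeq order of genes, mhc1uba, psmb13a, psmb8a, psmb12, psmb9a and tap2a lie next to each other, so this class includes a run of neighbours within the major histocompatibility region, of which only psmb12 and psmb9a were tested. Psmb12 stood at -3.34, -3.29 and -3.43 in controls, -3.17, -3.68 and -3.94 after neomycin, and -4.18, -4.40 and -3.68 after both compounds. The controls were tight and all above the arrays of both compounds, while the neomycin arrays ran from above every control into the range of both compounds. The difference of both compounds from the control was the lowest among the members, -0.73 ± 0.23 (SE, interval -1.26 to -0.20, limma's adjusted p = 0.105), and the other psmb12 probe gave -0.39. Psmb12 was dim, far below the 75th percentile on every array, though well above background. That percentile was 105 to 137 on the control arrays and 152 to 226 on those of both compounds. The part of this scaling in the psmb12 difference was not tested.

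Psmb10, whose product replaces the psmb7 subunit in the inducible core, stood at -1.21 on each control array. It was -0.74, -1.01 and -1.71 after neomycin, and -1.45, -1.61 and -1.62 after both compounds. The controls lay above the arrays of both compounds, but the neomycin arrays covered the whole range. The difference from the control was -0.35 ± 0.23 (SE, limma's adjusted p = 0.401), and its 3 probes ranged from -0.44 to -0.18. Psmb9a, which replaces psmb6, differed by -0.33 ± 0.16 (SE, adjusted p = 0.261), with signals near the detection limit.

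Psme1 and psme2 encode the alpha and beta chains of PA28, the interferon-inducible activator that opens the core without ubiquitin. Psme2 stood at -0.71, -0.90 and -0.77 in controls, -0.71, -0.91 and -0.81 after neomycin, and -1.47, -1.30 and -1.04 after both compounds. Control and neomycin arrays coincided, and all 3 arrays of both compounds lay below them. The difference was -0.46 ± 0.15 (SE, limma's adjusted p = 0.151) against neomycin and -0.48 ± 0.15 (SE, adjusted p = 0.0993) against the control, the smallest adjusted p of any member, and neither passed. By slide it was -0.77, -0.39 and -0.23 against neomycin. Psme2 had only 1 tested probe.

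Psme1 stood at 0.93, 0.94 and 1.03 in controls, 1.21, 0.69 and 0.83 after neomycin, and 0.45, 0.39 and 0.70 after both compounds. The arrays of both compounds lay below the controls and overlapped the neomycin arrays by a hair. The difference was -0.39 ± 0.16 (SE, limma's adjusted p = 0.261) against neomycin and -0.45 ± 0.16 (SE, adjusted p = 0.147) against the control.

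**Figure D3:**
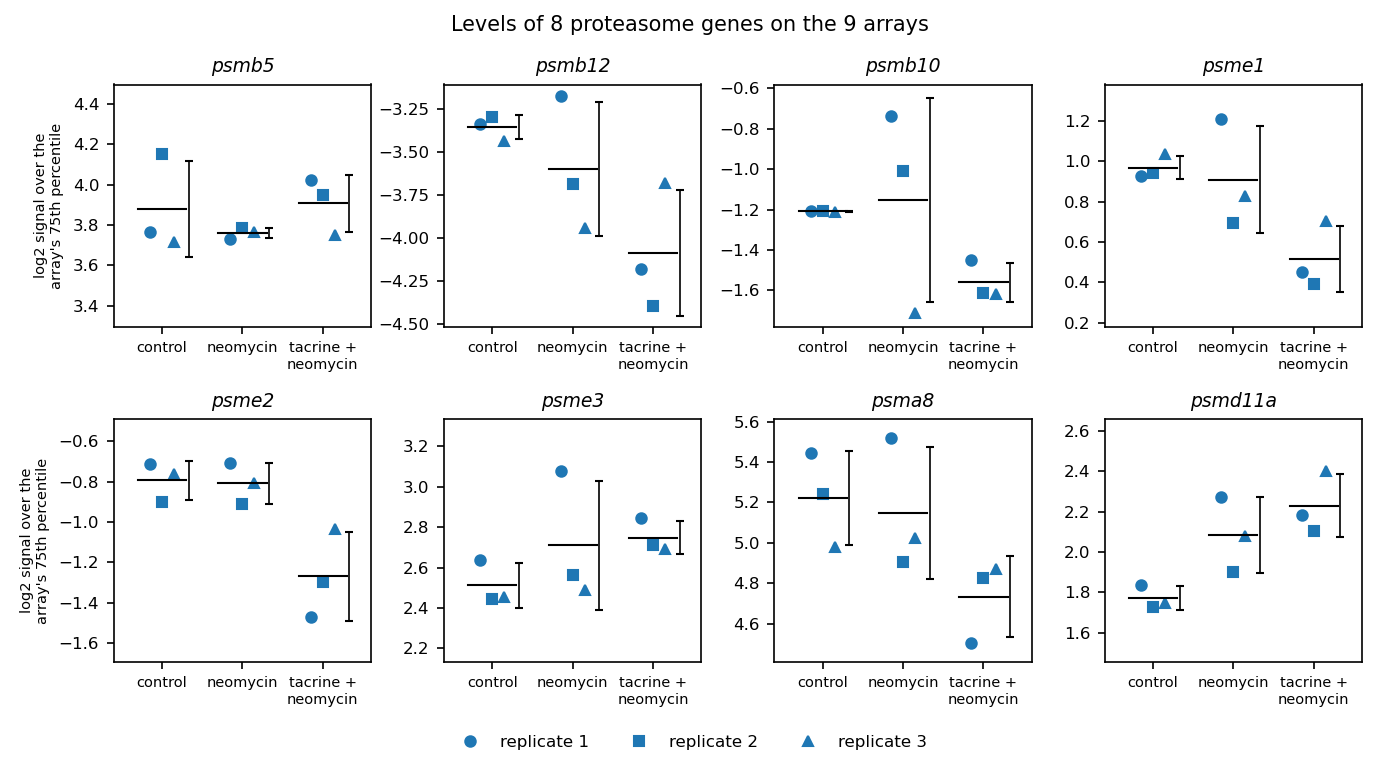
Log2 level over the array's 75th percentile for 8 proteasome genes in the 3 groups. Symbols are single arrays by replicate number, horizontal lines are group means and whiskers are SDs (n = 3). Psme2 sits between -1.47 and -1.04 after both compounds and between -0.91 and -0.71 on the other 6 arrays; the psmb5 probe shown overlaps in all groups. The vertical axes differ between genes.

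The genes psmb9a, psmb10, psmb12, psme1 and psme2, inducible by interferon or related to such genes, were grouped after their values were seen. Their shared sign is thus a description only. Whether interferon induces psmb12 was not tested. All 5 were negative after both compounds, from -0.49 to -0.27 against neomycin and from -0.73 to -0.33 against the control, and 0 of the 5 passed in limma's test. The values of the beta subunits against neomycin rested largely on neomycin replicate 1: without it psmb10 differed by -0.20, psmb12 by -0.27 and psmb9a by -0.14, and on slide 3 the 3 genes were positive (0.10, 0.26 and 0.03). Psme1 was then at -0.24. For all 5 the arrays of both compounds lay below every control array, a pattern that 16.2% of all genes showed. Among the 5, psmb9a was not well above background on control arrays 1 and 2 but was so on every array of both compounds. Psmb12 was dim as well. The percentile used for scaling was 105 to 137 on the control arrays and 152 to 226 on those of both compounds. The part of this scaling in the order of psmb9a and psmb12 was not tested. Against neomycin the arrays of both compounds lay below every neomycin array for 1 of the 5 (14.5% of all genes).

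Other genes of antigen presentation and leukocyte markers are given beside them. Of 10 tested genes of antigen presentation, 5 were positive in neomycin against control (48.2% of all genes), with a median of -0.03 and a range from -0.21 to 1.12. After both compounds 0 were positive against neomycin (median -0.34) and 2 against the control (median -0.29), beside 46.3% and 44.4% of all genes. Irf1a, encoding a transcription factor of the interferon response, was called lower in both comparisons. It stood at -3.81, -3.36 and -3.12 in controls, -2.94, -3.13 and -3.29 after neomycin, and -4.36, -4.12 and -4.34 after both compounds.

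All 3 arrays of both compounds were thus below the other 6 for irf1a. The difference was -1.15 ± 0.19 (SE, limma's adjusted p = 0.0202) against neomycin and -0.85 ± 0.19 (SE, adjusted p = 0.0385) against the control, where the slide block gave an adjusted p of 0.0545. Tapbp.1, encoding tapasin, which helps load peptides, fell by 0.65 ± 0.15 (SE, adjusted p = 0.0432) on 1 of its 2 probes against the control, with an adjusted p of 0.0515 under the slide block. Another probe of the beta-2-microglobulin-like gene b2ml, 1 of 4, also fell there by 0.49 (adjusted p = 0.0483).

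Of 12 leukocyte marker genes on the array 10 were tested, with csf1ra and il2rga below background on all arrays. Their median was -0.26 against neomycin and -0.10 against the control, and 0 were called by limma in any comparison, with 2 of the 10 at an unadjusted p under 0.05 in each of these. Their summed linear level ran from 16.1 to 26.0 in controls, 14.5 to 25.5 after neomycin and 13.9 to 18.7 after both compounds. The part of leukocytes in the values of the inducible and related genes was not tested. Of the other tissues' lists, all 7 exocrine pancreas markers were negative in each comparison, with medians of -0.41 in neomycin against control, -0.28 in both compounds against neomycin and -0.63 in both compounds against control, where 3 were called (5.66% of all genes). The 5 erythrocyte markers were all negative in neomycin against control (-0.59 to -0.17) and all positive in both compounds against neomycin (0.18 to 1.12), where 2 were called (2.76% of all genes). In both compounds against control they ran from -0.41 to 0.96 with 1 called (5.66% of all genes), while their summed level, 115 to 156 after both compounds, was mostly below that of controls (149 to 194). By limma 0 of the markers of muscle, liver, lens and neurons were called, with up to 3 of a list (muscle) at an unadjusted p under 0.05.

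The remaining activators, the inhibitor and the assembly genes lay nearer to their control levels, apart from psmg2 at -0.33 ± 0.21 (SE; -0.15 without control replicate 1). Psme3, encoding the nuclear PA28 gamma, stood at 2.64, 2.44 and 2.45 in controls, 3.08, 2.56 and 2.49 after neomycin, and 2.84, 2.71 and 2.69 after both compounds. The arrays of both compounds lay above the controls, and neomycin array 1 above all. The difference from the control was 0.24 ± 0.17 (SE, limma's adjusted p = 0.468), and all 4 probes were positive, from 0.24 to 0.43. Psme4b, encoding the activator PA200, differed by -0.16 ± 0.13 (SE). Psmf1, encoding the inhibitor PI31, and psmg1, encoding an assembly chaperone of the alpha ring, differed by 0.17 and 0.19, and pomp, which is needed for core maturation, by -0.01.

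Among the 20 regulatory genes the 7 ATPases had a narrower range than the 13 non-ATPase subunits on the brightest probes. A range over fewer genes tends to be narrower. The median absolute differences of both compounds from the control were close, at 0.046 for the ATPases and 0.051 for the others. The 7 ATPase values ran from -0.07 to 0.20 against the control, with psmc3 the highest (0.20 ± 0.14, SE) and psmc2 the lowest (-0.07 ± 0.19, SE). Other probes reached further. The 4 probes of the ATPase gene psmc1a ran from 0.04 to 0.45 against the control, and none passed. The 4 probes of the non-ATPase gene psmd3 ran from 0.00 to 0.41 there, and none passed either. Of the non-ATPase subunits, psmd1 and psmd2, the scaffolds at the base, differed from neomycin by 0.22 and 0.20. The ubiquitin receptor genes psmd4a and psmd4b differed from the control by 0.05 and 0.06 on their brightest probes. Over all probes psmd4a ran from -0.07 to 0.05 and psmd4b from -0.18 to 0.06. Psmd14 differed by -0.00 ± 0.18 (SE). On the brightest probes psmd8 was the lowest regulatory gene in both comparisons, at -0.13 against neomycin and -0.12 against the control. The other psmd4b probe was lower in both, at -0.21 and -0.18.

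On the brightest probes, psmd11a was the only 1 of the 20 regulatory genes with an unadjusted p under 0.05 in both compounds against control. Of all genes 22.0% had such a p there, so the class holds no excess of them. It is 1 of 2 genes for a scaffold subunit of the lid, which is known from mammalian cells to favour assembly of the capped particle when abundant. Its levels were 1.84, 1.73 and 1.75 in controls, 2.27, 1.90 and 2.08 after neomycin, and 2.18, 2.10 and 2.402 after both compounds. Every treated array lay above every control array, and the treated groups overlapped. Groups without overlap, in either direction, were found for 13.5% of all genes in neomycin against control and 29.9% in both compounds against control.

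The psmd11a difference from the control was 0.31 ± 0.15 (SE, limma's adjusted p = 0.588) after neomycin and 0.46 ± 0.15 (SE, interval 0.13 to 0.79, adjusted p = 0.104) after both compounds, with 0.34, 0.38 and 0.66 by slide. It did not pass here, but did so in the authors' deposited matrix (0.42 ± 0.09, SE, adjusted p = 0.0429) and with array weights (0.51 ± 0.13, SE, adjusted p = 0.0452). Psmd11a had only 1 tested probe. The brightest probe of its paralog psmd11b stayed between 0.91 and 1.14 on all 9 arrays. On that probe both compounds differed from the control by -0.03 ± 0.12 (SE), and the other psmd11b probe gave 0.11. Cross-hybridisation between such paralogs was not tested.

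Probes of a gene often disagreed in sign, as values this near 0 can. Of the 34 genes with more than 1 tested probe, all probes had 1 sign for 14 genes in neomycin against control, 23 in both compounds against neomycin and 17 in both compounds against control. Psmd2, for example, gave -0.01 on its brightest probe and 0.27 on each of the other 2 in both compounds against control. Psmc3ip and psme3ip1, the genes matched by spelling only, differed by 0.35 and -0.34 there and did not pass, though psme3ip1 passed in the authors' deposited matrix.

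The pathway around the proteasome was read from a list of 58 genes, of which 44 were on the array and 42 tested. By limma 0 were called after neomycin alone, with 3 of 42 at an unadjusted p under 0.05 (8.18% of all genes). In both compounds against neomycin 2 of 42 were called, zfand5a and irf1a (2.76% of all genes). Against the control 4 of 42 were called, rad23b, nfe2l1a, irf1a and tapbp.1 (5.66% of all genes). Uchl5, encoding a deubiquitinase bound to the regulatory particle, had the lowest value after neomycin, -0.69 ± 0.15 (SE, limma's adjusted p = 0.173).

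Nfe2l1a encodes the transcription factor that in mammals raises proteasome gene expression when proteasome activity is short. Its levels were -3.22, -3.22 and -3.69 in controls, -3.74, -3.66 and -3.67 after neomycin, and -3.90, -4.63 and -4.23 after both compounds. The arrays of both compounds lay below all others. It fell by 0.87 ± 0.21 (SE, limma's adjusted p = 0.0433) against the control, with an adjusted p of 0.0528 under the slide block. These signals were dim, far below the 75th percentile by which they are scaled. That percentile was 105 to 137 on the control arrays and 152 to 226 on those of both compounds. The part of this scaling in the nfe2l1a difference was not tested.

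Zfand5a, whose mouse counterpart binds the proteasome and stimulates it, stood at 4.05, 3.74 and 3.89 in controls, 3.50, 3.46 and 3.96 after neomycin, and 4.80, 4.46 and 4.52 after both compounds. All 3 arrays of both compounds were above the other 6. It rose by 0.95 ± 0.18 (SE, limma's adjusted p = 0.0296) against neomycin, and its other probe rose by 1.32. Against the control it differed by 0.70 (adjusted p = 0.0544), short of the threshold.

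Rad23b, encoding a shuttle that carries ubiquitylated proteins to the proteasome, stood at -0.45, -0.71 and -0.03 in controls, 0.24, 0.31 and 0.76 after neomycin, and 0.49, 0.42 and 1.11 after both compounds. All treated arrays lay above the controls. It rose by 1.07 ± 0.25 (SE, limma's adjusted p = 0.0396) in both compounds against the control, on 1 of its 2 probes. After neomycin alone the difference was 0.83 (adjusted p = 0.335).

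**Figure D4:**
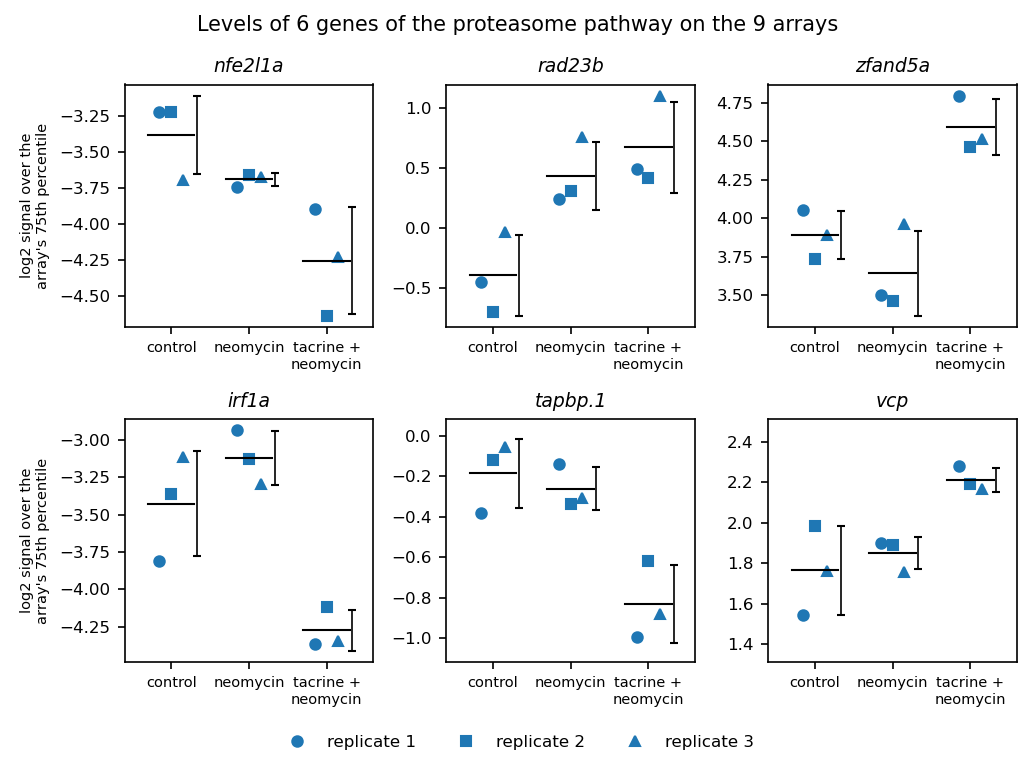
Log2 level over the array's 75th percentile for 5 called genes of the proteasome pathway and for vcp, which was not called. Symbols are single arrays by replicate number, lines are group means and whiskers SDs (n = 3). After both compounds irf1a sits between -4.36 and -4.12, below the other 6 arrays, and zfand5a between 4.46 and 4.80, above them. The vertical axes differ between genes.

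These calls were narrow. Leaving out 1 array at a time took the call from zfand5a in 6 of 9 fits, from irf1a in 4 of 9 against neomycin and 7 of 9 against the control, from rad23b in 6, from nfe2l1a in 7 and from tapbp.1 in 8. Each was also lost with normexp background correction scaled to the 75th percentile. Without a filter on dim probes the calls of zfand5a, rad23b, nfe2l1a, tapbp.1 and, against the control, irf1a were lost. Normexp with quantile normalization ended those of irf1a, nfe2l1a and rad23b, and the authors' deposited matrix those of irf1a and rad23b. The mean of all probes ended those of rad23b and tapbp.1, and quantile normalization alone or an intensity trend that of nfe2l1a. On other probes, ecpas was called higher by 0.73 on 1 of 3 probes and ubxn1 lower by 0.69 on 1 of 2, both against the control. Among the genes not called, vcp, the ATPase that extracts ubiquitylated proteins, differed from the control by 0.45 ± 0.14 (SE, limma's adjusted p = 0.106). Usp14, encoding a deubiquitinase of the particle, differed by 0.36 (adjusted p = 0.172), and adrm1, encoding a ubiquitin receptor, by 0.08.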

How the data were processed

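Intensity was deposited by the authors as scanner output for each array, per the file headers in linear units: a signal corrected for background by Agilent Feature Extraction, and medians of each spot and its surroundings. Version 8.0 is given per the submitters' processing notes, and the file headers give another. A log2 matrix of 25265 probes that the authors deposited has no stated method or centring. With each probe centred on its mean over the arrays, each column matched its own array best. For uncentred levels the r of a column with its own array was 0.981 to 0.986. The matrix served as an alternative only.

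Spots of 1 probe were averaged, and the 75th percentile of each array was subtracted from the log2 processed signal. Probes well above background on at least 3 of 9 arrays were tested (31671 of 43603). Probes were named by RefSeq accession (25173 with 1 symbol, 18430 with none); no positions are given, because the array's build differs. One model over the 9 arrays was fitted by lmFit and eBayes of limma 3.58.1 (R 4.3.3; two-sided, 6 residual degrees of freedom) and tested on simulated data; p values were adjusted by Benjamini-Hochberg over all tested probes, and called at 0.05. The fit has no block; replicate numbers name shared slides per the file headers, so fits with the slide as a block are given where they change a call. Precision is limited by the few arrays.

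The members, the lists and the tests were chosen with earlier results of these data known. Named were, per class and comparison, the genes with the highest and lowest difference, a set chosen by role, and called pathway genes. The 19 alternatives cover background, scaling, filter, block, weights, trend, probe choice, the matrix and each array left out.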

Additional observations from a re-analysis of the deposited data

How the results depend on the processing

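The count of 0 members called held under all alternatives for neomycin against control and for both compounds against neomycin. In both compounds against control it was 2 in the authors' matrix, psmd11a and psme3ip1, the latter a match by spelling only. With array weights it was 1 (psmd11a). Normexp background correction scaled to the 75th percentile moved the comparisons with the control most: the core median became 0.87 and 0.84 and the regulatory median 0.92 and 0.97 (neomycin, both compounds). Under that setting all genes shifted with brightness, by a median of 0.77 and 0.79 in the brightest of 4 equal groups, which holds 36 of the 53 members, and by -0.71 and -0.82 in the dimmest, so these shifts are not particular to proteasome genes. The core minus regulatory value against neomycin, -0.14, was -0.084 with normexp and quantile normalization and -0.088 in the authors' matrix; that against the control, -0.13, was -0.074 with the former. The core median against the control, -0.13, was -0.056 with normexp and quantile normalization, -0.084 with array weights and -0.069 with the mean of all probes. All probes called numbered 37, 846 and 1875 (in the order neomycin against control, both compounds against neomycin, both compounds against control). They were 0, 12 and 67 with normexp and the 75th percentile, 7, 524 and 1097 with normexp and quantile normalization, and 86, 2330 and 3003 with array weights. The first was 18 in the authors' matrix, 73 with the intensity trend, 73 for probes above background on all 9 arrays, 20 without a filter (the second then 496) and 22 with the replicate block. Leaving out 1 array gave 11 to 65, 272 to 976 and 787 to 1847. With each probe's group mean subtracted, the deviations of same-numbered arrays correlated at r from -0.083 to 0.26, over 0.1 in 6 of 9 pairs. By these deviations 6 of 9 arrays matched their own number best in both other groups. The number is also the slide, so the samples share that batch; the model as reported has no block. With the replicate block 0 proteasome genes were called in any comparison. Of 2382 gene values under alternatives, chosen after seeing the data for the other pathway genes, 126 changed sign within 1 SE and 36 by more. With normexp and the 75th percentile, neomycin against control became 0.42 (psma3), 1.00 (psma8), -0.31 (psmb10), 0.87 (psmb2), 0.82 (psmb5), 1.00 (psmc2), -0.15 (psmc3ip), 0.89 (psmc6), 0.83 (psmd1), 0.21 (psmd10), 0.26 (psmd11b), 0.81 (psmd2), 0.95 (psmd4a), 0.26 (psme1), 0.93 (adrm1), -0.60 (irf1a) and 0.80 (zfand5a). Both compounds against control became 0.82 (psma2b), 0.28 (psma3), 0.58 (psma8), 0.86 (psmb2), 0.59 (psmb3), 0.97 (psmc2), -0.060 (psmc3ip), 0.96 (psmc6), 0.37 (psmd11b), 1.02 (psmd14), 1.07 (psmd2), 1.06 (pomp) and 0.12 (uchl5). Psmb10 was -0.23 with array weights (neomycin against control). The mean of its probes gave psmd2 0.0061 and 0.18 against the control. With 1 array left out, psmd4b ran from -0.11 to 0.23 in neomycin against control and from -0.16 to 0.17 in both compounds against neomycin, where psma6a ran from -0.085 to 0.23; the reversals came without neomycin replicate 1 (psmd4b) and replicate 2 of both compounds (psma6a). Dim signal limits psmb9a, and signals far below the 75th percentile also limit psmb12, irf1a and nfe2l1a.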
